A study of Mus musculus with 10 samples.

Results

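Mitochondria of brown adipocytes constantly join, divide and are removed, and the 10 genes described here encode the core proteins of these processes. They are Mfn1, Mfn2, Opa1 and Oma1 for fusion, Dnm1l, Fis1 and Mff for fission, Immt for cristae, and Pink1 and Bnip3 for mitophagy, the selective degradation of mitochondria. They were chosen by name from the 55414 genes in the count files, not by any measured value, and all 10 passed the filter on low counts. Earlier results of these data were known when they were chosen. Interscapular brown adipose tissue (iBAT) of 5 Cre- and 5 Cre+ male C57BL/6J mice was analyzed by RNA sequencing after poly(A) selection. Both groups carried RetSat alleles flanked by loxP sites on both chromosomes (RetSat flox/flox), were fed normal chow and were 12 to 14 weeks old. Cre+ mice in addition carried Ucp1-Cre, a Cre recombinase driven by the Ucp1 promoter, and Cre- mice did not. RetSat (retinol saturase) is an enzyme that acts on vitamin A alcohol. Recombination is limited to cells that express Ucp1, so other cells of the tissue keep intact RetSat alleles. No Cre+ mice without floxed alleles were among the samples, so effects of Cre itself and of RetSat deletion cannot be told apart. The comparison asks whether transcripts of these genes differ between Cre- and Cre+ iBAT.

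Fusion joins outer membranes through the mitofusins Mfn1 and Mfn2 and inner membranes through Opa1, a large GTPase that proteases such as Oma1 and Yme1l1 cut into shorter forms. Fission is carried out by Dnm1l (also called Drp1), a GTPase recruited from the cytosol by receptors on the outer membrane such as Mff, Fis1, Mief1 and Mief2, and Immt (also called Mic60) is the central subunit of MICOS, the complex that holds the necks of cristae. Pink1 is a kinase that accumulates on depolarized mitochondria and marks them for removal, whereas Bnip3 and its paralog Bnip3l are receptors in the outer membrane that bind autophagosomes directly. In brown adipose tissue, mitochondria are known to divide upon adrenergic stimulation and to be removed by mitophagy when the tissue turns inactive. Much of this control acts on the proteins, through phosphorylation, cleavage and ubiquitination, which transcript counts do not measure.

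Total counts per library lay between 91903095 and 132499312 for the Cre- group and between 96991071 and 110293494 for the Cre+ group. RetSat, the targeted gene, had 151, 169, 156, 194 and 255 CPM (counts relative to the library's total, scaled by TMM) in Cre- mice 1 to 5 and 18.9, 20.7, 39.0, 18.0 and 23.0 CPM in Cre+ mice 1 to 5, and by edgeR its log2 fold change of Cre+ against Cre- was -2.95 with an SE of 0.24 (adjusted p = 0.00402, quasi-likelihood F test). Every library therefore matched its genotype label. Markers of brown adipocytes, 12 genes, summed to between 16804 and 20819 CPM in the Cre- group and to between 17006 and 20865 CPM in the Cre+ group. Of 8 marker lists for cell types, none held a gene called by edgeR, where 0.164% of all tested genes were called. With so few calls over all genes, this cannot show that the cell composition of the groups was alike. Over all libraries, summed fibroblast markers ranged from 369 CPM in Cre+ 2 to 854 CPM in Cre+ 3. Schwann cell markers ranged from 41.2 CPM in Cre+ 2 to 129 CPM in Cre+ 3. Summed lymphocyte markers were 8.28 to 8.87 CPM in Cre+ 2, 3 and 4 against 5.93 to 6.59 CPM in the other libraries, and macrophage markers were 80.8 and 91.6 CPM in Cre+ 3 and 4 against 55.8 to 73.4 CPM in the others. The part of these differences in cell markers in the results was not tested. Summed skeletal muscle markers were 546 CPM in Cre- 2 and 268 CPM in Cre+ 4 against 1.58 to 21.2 CPM in the other 8 libraries, with Ckm, Myh1, Myh2, Myh4 and Pvalb at 0 in at least 1 library. The libraries Cre+ 1, 4 and 5 had an added letter in the identifier of their file, whose meaning is not given in the sources used here. The protein-coding genes of mitochondrial DNA took 15.1 to 15.8% of counts in these, 16.8 to 17.1% in Cre+ 2 and 3 and 16.99 to 20.5% in Cre- libraries. No Cre- library carried such a letter, so within lettered libraries there is no comparison of genotypes and the letter and the genotype cannot be told apart there. In bulk tissue, fewer cells of a type and less RNA per cell cannot be told apart either.

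None of the 10 genes passed the test between Cre- and Cre+ mice, and in each of them the groups overlapped. At an adjusted p under 0.05, edgeR called 0 of 10 genes, where 0.164% of all 17690 tested genes were called (0.13% lower and 0.0339% higher in Cre+ mice, 23 and 6 genes, or 11 and 17 genes when total counts without TMM were used). At an unadjusted p under 0.05, 0 of 10 genes passed by edgeR, against 12.3% of all tested genes (5.95% lower, 6.4% higher). Mfn2 missed that threshold narrowly, and the count depended on the setting. Mfn2 was higher at it with DESeq2 size factors, with genes of mitochondrial DNA left out of the scaling and without Cre- 3. Over all genes, these settings had 1150, 1152 and 917 higher and 1028, 1023 and 859 lower at that threshold. Fis1 was higher by limma voom, without Cre- 2, without Cre+ 4 and without both libraries high in muscle transcripts. Over all genes, these had 1418, 1048, 1367 and 1305 higher and 1473, 996, 1552 and 1487 lower. Mfn2, Fis1 and Pink1 were higher without Cre+ 2, where 1258 genes in all were higher and 1232 lower. In the remaining alternatives except total counts without TMM, 0 of 10 passed. With total counts without TMM, Mfn2, Fis1 and Pink1 were higher at that threshold, with log2 fold changes of 0.22, 0.22 and 0.20 and adjusted p = 0.167, 0.178 and 0.212 from edgeR, and 2292 genes in all were higher and 517 lower. DESeq2 also called 0 of 10 genes at an adjusted p under 0.05, where it called 2.28% of its 17209 genes. At an unadjusted p under 0.05, 0 of 10 passed by DESeq2, where 2554 genes in all did. In 0 of 10 genes were the CPM of the groups without overlap, against 2.67% of all tested genes. The log2 fold changes ranged from -0.09 to 0.15 with a median of -0.04, and the median over all tested genes was 0.00. Their median size was 0.07, and that over all tested genes was 0.14. The 10 genes had Cre- means of 9.58 (Oma1) to 660 CPM (Immt), and all tested genes were not matched to them in level. The 2 sizes are therefore not directly comparable. The estimate was below 0 for Mfn1, Opa1, Oma1, Dnm1l, Mff and Immt and above 0 for Mfn2, Fis1, Pink1 and Bnip3, but with total counts without TMM the estimates of Mfn1, Opa1, Mff and Immt lay above 0. Among the 95% intervals, the widest was that of Bnip3, from -0.25 to 0.34, and the others lay within -0.33 and 0.31. A p that misses the threshold does not show that levels were equal, and the intervals give the differences that these mice leave possible.

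**Figure D1:**
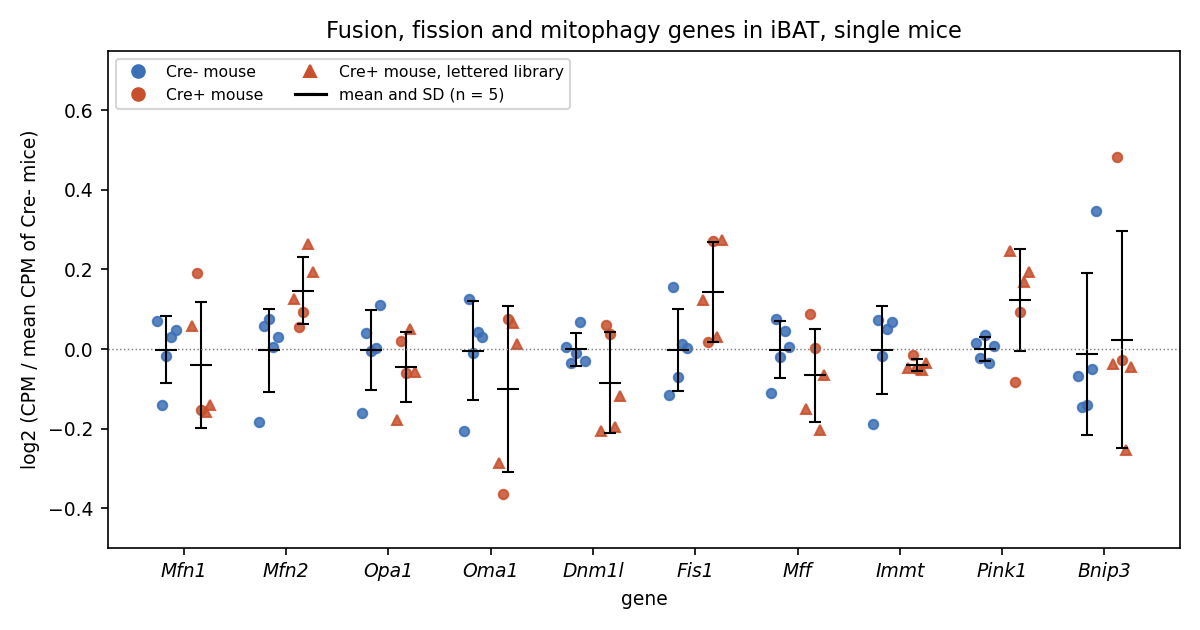
Log2 ratio of each library's CPM to the mean of the Cre- mice for the 10 genes (x axis, gene; y axis, log2 ratio). Each point is a mouse, blue for Cre- and orange for Cre+, triangles are the 3 lettered Cre+ libraries, and black bars are the mean and SD of 5 mice. The groups overlap in every gene, and Bnip3 in Cre+ 2 (218 CPM) and Cre- 5 (198 CPM) lies apart from its group.

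Mfn1 lies on chromosome 3 of GRCm39 from 32583614 to 32633388. It had 96.3, 83.1, 90.7, 93.6 and 94.9 CPM in Cre- mice 1 to 5 and 95.5, 105, 82.4, 82.2 and 83.1 CPM in Cre+ mice 1 to 5. Its log2 fold change was -0.03 (SE 0.08, 95% interval -0.21 to 0.14, adjusted p = 0.896 from edgeR). Cre+ 3, 4 and 5 lay just below the lowest Cre- mouse while Cre+ 2 lay above the highest, so the Cre+ group spread more (SD 10.1 against 5.22 CPM) around a similar mean.

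Mfn2, which also tethers mitochondria to the endoplasmic reticulum, lies on chromosome 4 from 147958056 to 147989161. Cre- mice 1 to 5 had 380, 449, 455, 433 and 440 CPM and Cre+ mice 1 to 5 had 471, 449, 460, 519 and 494 CPM. All Cre+ mice but Cre+ 2 lay above every Cre- mouse, and Cre+ 2 lay at the level of Cre- 2. The means were 432 ± 29.9 and 478 ± 27.98 CPM (SD, n = 5 each), a log2 fold change of 0.15 (SE 0.07, 95% interval 0.00 to 0.30, adjusted p = 0.407 from edgeR), which did not pass the test. The interval corresponds to a level in Cre+ mice from 0.0274% lower to 22.9% higher. The lettered libraries held the 3 highest values (471 to 519 CPM), and without them the log2 fold change was 0.07 (adjusted p = 0.878 from edgeR). The share of counts from mitochondrial DNA was also lower in these libraries than in Cre+ 2 and 3 (15.1 to 15.8% against 16.8 to 17.1%), and its part in this result was not tested. Per mouse, the ratio of Mfn2 to Mfn1 CPM was 3.95 to 5.40 (median 4.64) in Cre- and 4.28 to 6.31 (median 5.58) in Cre+ mice, with overlapping groups.

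Opa1 (chromosome 16, 29398152 to 29473702) had 258, 297, 288, 289 and 312 CPM in Cre- mice 1 to 5 and 255, 293, 277, 299 and 278 CPM in Cre+ mice 1 to 5. Both groups covered nearly the same range, and the log2 fold change was -0.04 (SE 0.07, 95% interval -0.19 to 0.10, adjusted p = 0.835 from edgeR). Oma1, the protease that cuts Opa1 under stress (chromosome 4, 103171009 to 103229065), had 8.30, 10.5, 9.51, 9.86 and 9.78 CPM in Cre- and 7.86, 7.44, 10.1, 10.02 and 9.66 CPM in Cre+ mice 1 to 5. Cre+ 1 and 2 lay below all Cre- mice and the other Cre+ mice within their range. The log2 fold change of Oma1 was -0.09 (SE 0.11, 95% interval -0.33 to 0.15, adjusted p = 0.789 from edgeR). Transcript counts say nothing of the long and short forms of the Opa1 protein.

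Dnm1l, the fission GTPase (chromosome 16, 16130094 to 16176823), had 107, 104, 106, 112 and 105 CPM in Cre- mice 1 to 5 and 92.5, 111, 109, 93.2 and 98.3 CPM in Cre+ mice 1 to 5. The Cre- mice lay close together (coefficient of variation 2.89%), whereas the Cre+ mice spread over a wider range (8.80%) in which the lettered libraries had the 3 low values. By edgeR its log2 fold change was -0.08 (SE 0.07, 95% interval -0.23 to 0.07, adjusted p = 0.667 from edgeR), and without the lettered libraries it was 0.04. Mff, the receptor that recruits most Dnm1l to mitochondria (chromosome 1, 82702611 to 82730115), had 93.1, 106, 99.0, 104 and 101 CPM in Cre- and 90.5, 107, 101, 87.2 and 96.0 CPM in Cre+ mice 1 to 5. Mff took the same order as Dnm1l in the Cre+ mice at its top, with Cre+ 2 first and Cre+ 3 second. Its log2 fold change was -0.06 (SE 0.07, 95% interval -0.21 to 0.08, adjusted p = 0.752 from edgeR), and 0.04 without the lettered libraries. Per mouse, the ratio of Mff to Dnm1l CPM lay between 0.869 and 1.02 in Cre- mice and between 0.918 and 0.978 in Cre+ mice.

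Fis1, a small outer membrane protein named for fission in yeast (chromosome 5, 136982129 to 136995088), had 43.1, 52.0, 44.5, 47.1 and 46.8 CPM in Cre- mice 1 to 5. Cre+ mice 1 to 5 had 50.9, 47.3, 56.4, 47.7 and 56.5 CPM. All Cre+ mice lay above the Cre- mean, and 2 of them above every Cre- mouse. The means were 46.7 ± 3.40 and 51.8 ± 4.52 CPM (SD, n = 5 each), with a log2 fold change of 0.15 (SE 0.08, 95% interval -0.01 to 0.31, adjusted p = 0.447 from edgeR). This value was also 0.15 without the lettered libraries and did not pass the test. The ratio of Fis1 to Dnm1l CPM was 0.403 to 0.4997 (median 0.422) in Cre- and 0.425 to 0.575 (median 0.516) in Cre+ mice, again with overlap.

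Immt (chromosome 6, 71808315 to 71854372) had 579, 695, 652, 684 and 692 CPM in Cre- mice 1 to 5 and 639, 653, 638, 636 and 645 CPM in Cre+ mice 1 to 5. All Cre+ mice fell inside the range of the Cre- mice, with a coefficient of variation of 1.09% against 7.35%. Cre- 1 lay below the other Cre- mice. For Immt the log2 fold change was -0.04 (SE 0.06, 95% interval -0.18 to 0.10, adjusted p = 0.838 from edgeR). No test compared the spread of the groups.

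Pink1 (chromosome 4, 138040720 to 138053618) had 263, 256, 266, 254 and 262 CPM in Cre- mice 1 to 5 and 308, 245, 277, 292 and 297 CPM in Cre+ mice 1 to 5. The Cre- mice differed little (coefficient of variation 2.02%). All Cre+ mice but Cre+ 2 lay above them, and Cre+ 2 lay below them. Its log2 fold change was 0.13 (SE 0.07, 95% interval -0.02 to 0.27, adjusted p = 0.470 from edgeR), and without the 3 lettered libraries, which held the 3 highest values, it was 0.00 (adjusted p = 0.995 from edgeR). Without Cre+ 2, Mfn2, Fis1 and Pink1 had log2 fold changes of 0.17, 0.18 and 0.18, with adjusted p = 0.325, 0.332 and 0.223 from edgeR.

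Bnip3 (chromosome 7, 138492565 to 138511248), which is also a known target of hypoxia signaling, varied most of the 10 genes among mice of a group. It had 149, 141, 141, 150 and 198 CPM in Cre- mice 1 to 5 and 152, 218, 153, 131 and 151 CPM in Cre+ mice 1 to 5. In each group a single mouse stood well above the rest, Cre- 5 and Cre+ 2. The log2 fold change was 0.05 (SE 0.13, 95% interval -0.25 to 0.34, adjusted p = 0.922 from edgeR). It was -0.09 without Cre+ 2, 0.15 without Cre- 5 and 0.24 without the lettered libraries, and none of these passed the test. The counts of Bnip3 are less certain than those of the other genes. Of its principal transcript, 94.2% of the length aligned at 97% identity or more to 4 other annotated genes. AC160336.1 and the pseudogenes Gm16439 and Gm6532 lie on chromosome 14. The antisense gene Gm45507 overlaps Bnip3 itself on chromosome 7, so its match need not be a copy elsewhere. The share matched without Gm45507 was not computed. A read that aligned to more than 1 locus was left out of the counts. These 4 genes had 0 to 29 counts per library, whereas Bnip3 had 12398 to 22957. Bnip3 also shares 22.25% of its exonic length with the antisense gene Gm45507, and strand was not used in counting. The overlaps of Dnm1l, Mff, Immt and Pink1 with other genes were smaller, at 4.67%, 2.00%, 1.63% and up to 4.12% of exonic length.

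The 10 genes did not move as a block across the Cre+ mice. Cre+ 2 had the highest CPM of the Cre+ mice for Mfn1, Dnm1l, Mff, Immt and Bnip3 and the lowest for Mfn2, Oma1, Fis1 and Pink1. Cre+ 4 was lowest in 4 of the genes and highest in Mfn2 and Opa1. Among the Cre- mice, Cre- 1 was the lowest for 6 genes. The CPM of the 10 genes together came to between 1977 and 2261 per Cre- mouse and between 2163 and 2235 per Cre+ mouse.

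**Figure D2:**
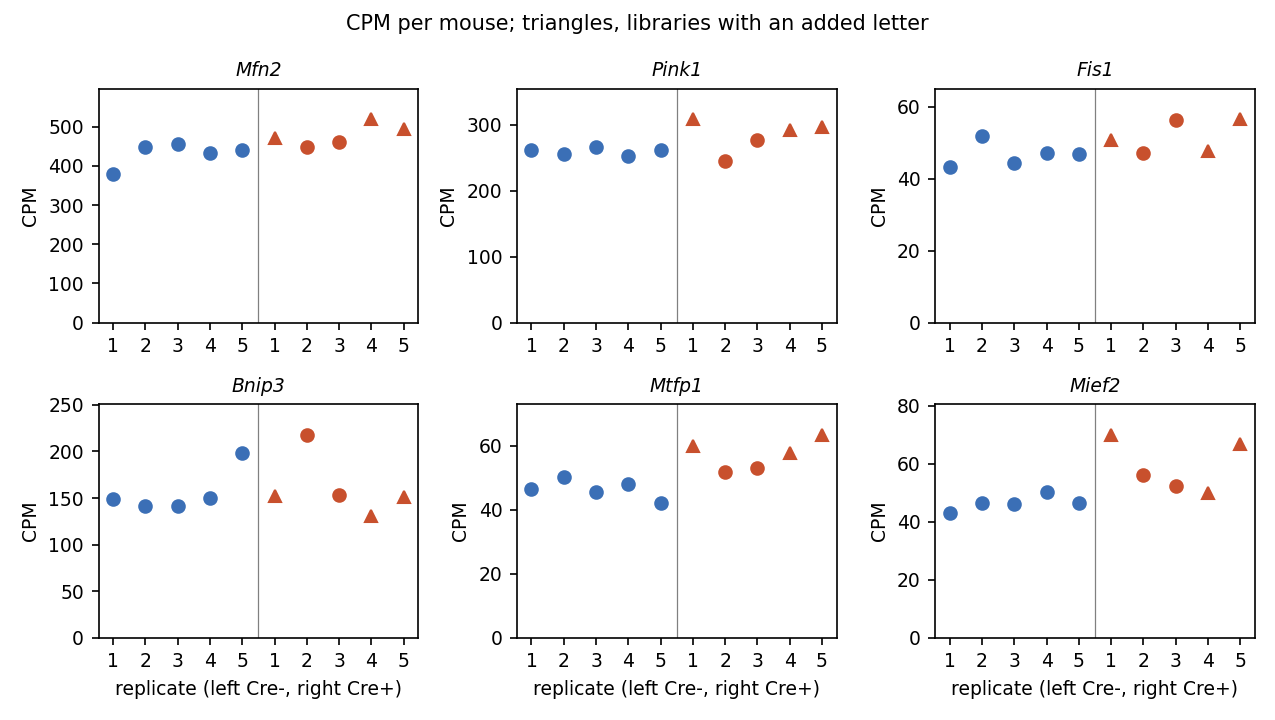
CPM of Mfn2, Pink1, Fis1, Bnip3, Mtfp1 and Mief2 in each mouse (x axis, replicate number, Cre- left of the line and Cre+ right of it; y axis, CPM from 0). Circles are libraries with a plain identifier and triangles the 3 lettered Cre+ libraries, which hold the highest Mfn2 (471 to 519 CPM), Pink1 (292 to 308 CPM) and Mtfp1 (57.7 to 63.4 CPM).

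Levels of different genes were compared per kilobase (kb), since longer transcripts collect more reads. Divided by the length of all exons of the gene, the Cre- means were 97.3 CPM per kb for Pink1, 83.1 for Mfn2, 68.8 for Bnip3, 58.2 for Immt, 36.7 for Opa1, 27.3 for Fis1, 20.5 for Dnm1l, 15 for Mfn1, 10.3 for Mff and 4.47 for Oma1. Of neighbors in this order, only Mfn2 and Bnip3 had overlapping ranges in Cre- mice, and Mfn2 was above Bnip3 in 8 of 10 libraries. On this scale the mitofusin Mfn2 was therefore above Mfn1, and the fission receptor Fis1 above Mff. The choice of length changed part of the order. Divided by the principal transcript (2728 bases for Immt against 11353 bases of exons, 1894 against 9757 bases for Mff), Immt came first with 242 CPM per kb, followed by Pink1 (109), Mfn2 (99.4), Bnip3 (88.8), Fis1 (59.4), Mff (53.0), Opa1 (46.4), Dnm1l (26.9), Mfn1 (20.1) and Oma1 (5.00). The counts divided were still those of all exons, so reads outside the principal transcript were included and these levels can be too high. On this scale Fis1 and Mff, as well as Mff and Opa1, overlapped in Cre- mice in addition to Mfn2 and Bnip3. Pink1 above Mfn2 and Oma1 at the bottom held with both lengths in 10 of 10 libraries.

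**Figure D3:**
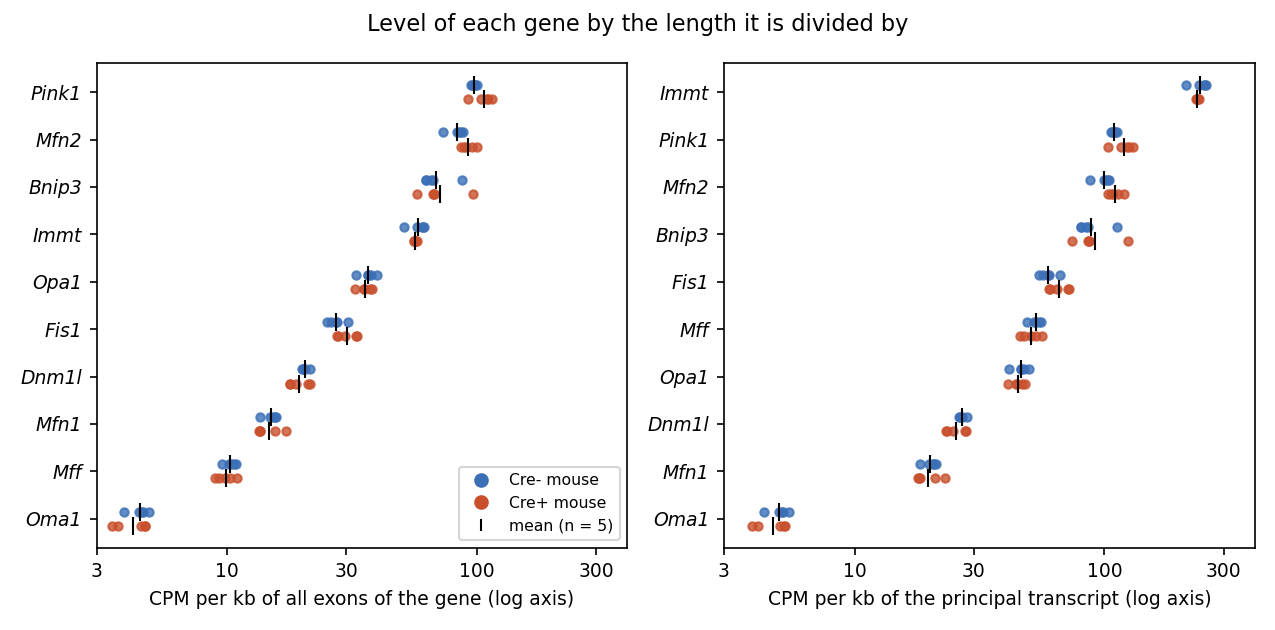
CPM per kb of the 10 genes on a log axis (x axis), ordered by the Cre- mean (y axis, gene), with all exons as the length on the left and the principal transcript on the right. Points are mice and black ticks are means of 5 mice. Immt moves from 58.2 to 242 CPM per kb in Cre- mice between the panels, and Oma1 is lowest in both.

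To place these genes in their pathways, 62 further genes of fusion, fission, MICOS, the PINK1 pathway, mitophagy receptors and transport along microtubules were examined, of which 59 were tested. Gdap1, Calcoco2 and Mgarp had too few counts. By edgeR, 0 of 59 genes were called, where 0.164% of all tested genes were, and by DESeq2 1, Mtfp1, was called higher in Cre+ mice, where 2.28% of its genes were called. At an unadjusted p under 0.05, 12 of 59 were higher and 0 lower by edgeR, where 6.4% and 5.95% of all tested genes were. The log2 fold change was above 0 for 45 genes and below 0 for 14, with a median of 0.05. Leaving out the 3 lettered Cre+ libraries left 2 Cre+ mice. In that setting 3 of the tested genes of these lists were higher at an unadjusted p under 0.05 (12 with all libraries). Over all tested genes, 778 of 18715 were higher then, and 1132 of 17690 with all libraries. The count for these lists was 7 without Cre- 1 or Cre- 3, with 1016 and 917 over all genes. It was 5 without Cre+ 1 or Cre+ 5, with 858 and 781 over all genes. Without Cre+ 2 it was 11, with 4 genes lower, and over all genes 1258 were higher and 1232 lower. With total counts without TMM it was 21, with 0 lower, against 2292 higher and 517 lower over all genes.

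The fission genes held 4 of the 12. Mtfp1, an inner membrane protein that promotes fission, had 46.4, 50.4, 45.5, 47.9 and 42.0 CPM in Cre- mice 1 to 5 and 59.8, 51.8, 53.1, 57.7 and 63.4 CPM in Cre+ mice 1 to 5. All Cre+ mice lay above all Cre- mice, which held for 1 of the 59 genes and for 2.67% of all tested genes in either direction. Mtfp1 had a log2 fold change of 0.30 with an SE of 0.07, and adjusted p = 0.121 from edgeR, 0.0323 from DESeq2 and 0.0602 from limma voom, so its call depends on the tool. Without the lettered libraries it was 0.17, with adjusted p = 0.554 from edgeR. Mief2, a receptor of Dnm1l, had 43.0, 46.6, 46.0, 50.1 and 46.6 CPM in Cre- and 70.0, 56.0, 52.3, 49.9 and 66.9 CPM in Cre+ mice 1 to 5. Of the Cre+ mice, only Cre+ 4 lay within the Cre- range. That library also held 268 CPM of muscle markers, whose part in this value was not tested. Over all mice the log2 fold change of Mief2 was 0.35 (95% interval 0.14 to 0.55, adjusted p = 0.165 from edgeR), which did not pass the test, nor did it by DESeq2 (adjusted p = 0.0741) or limma voom (adjusted p = 0.0692). Over its 20 alternatives it passed only without Cre+ 4 (0.40, adjusted p = 0.0417 from edgeR), and not without both libraries high in muscle transcripts (0.40, adjusted p = 0.0670 from edgeR). Without the lettered libraries Mief2 was at 0.22, with adjusted p = 0.394 from edgeR. The other Dnm1l receptor of this family, Mief1, had a log2 fold change of 0.09 (adjusted p = 0.647 from edgeR). The ubiquitin ligase Mul1 and the formin Inf2 had 0.25 and 0.21, with adjusted p = 0.280 and 0.392 from edgeR. Mul1 was at 0.12 and Mief1 at 0.11 without the lettered libraries.

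Among 12 further fusion genes, 9 had a log2 fold change above 0 and 3 below 0, and Miga2, Pld6 and Phb2 had the smallest p. Miga2, an outer membrane protein that promotes fusion, had a log2 fold change of 0.18 and the phospholipase Pld6 of 0.43, with adjusted p = 0.359 and 0.390 from edgeR. Prohibitin 2 (Phb2), a scaffold of the inner membrane, had 0.15 (adjusted p = 0.426 from edgeR), and Yme1l1, the other protease of Opa1, -0.12 (adjusted p = 0.517 from edgeR). Around Immt, the MICOS subunits Chchd3 and Micos13 had -0.10 and 0.03 (adjusted p = 0.552 and 0.895 from edgeR), the MICOS subunit Apool -0.11 (0.499), and the associated proteins Dnajc11 and Mtx1 0.22 (0.352) and 0.14 (0.454). Only Dnajc11 of 10 genes in that list was at an unadjusted p under 0.05. Without the lettered libraries Phb2 was at -0.0016, Pld6 at 0.28, Yme1l1 at -0.0009, Micos13 at -0.11, Apool at -0.04 and Mtx1 at 0.03. In that setting Dnajc11 was at 0.22, Miga2 at 0.15 and Chchd3 at -0.14.

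Among further mitophagy genes, Bnip3l was at 61.7 to 72.7 CPM in Cre- and 52.2 to 76.9 CPM in Cre+ mice, with a log2 fold change of 0.02 (95% interval -0.18 to 0.23, adjusted p = 0.942 from edgeR). Ambra1, an autophagy regulator, and Tomm7, which holds Pink1 at the outer membrane, had 0.23 and 0.15 (adjusted p = 0.358 and 0.471 from edgeR). Of the 10 receptors and their regulators, Pptc7, Fkbp8 and Nipsnap1 had the smallest p. Pptc7, a phosphatase that limits Bnip3 and Bnip3l, had 0.30, Fkbp8 0.18 and Nipsnap1 0.25, with adjusted p = 0.291, 0.336 and 0.383 from edgeR. In that list 8 genes were above 0 and 2 below 0, with a median of 0.05. The PINK1 pathway list had 9 above 0 and 2 below 0, and the transport list 3 and 2. For transport, Rhot2 (Miro2), which links mitochondria to motors, had 0.20 (adjusted p = 0.297 from edgeR), and the adaptors Trak2 and Trak1 had 0.08 and 0.05 (adjusted p = 0.724 and 0.824 from edgeR). Without the lettered libraries Bnip3l was at 0.15, Tomm7 at 0.07, Pptc7 at 0.18, Fkbp8 at 0.05 and Trak1 at -0.09. In that setting Nipsnap1 was at 0.33, Ambra1 at 0.26, Rhot2 at 0.15 and Trak2 at 0.08. Rhot2, Pptc7 and Mtx1 share more than 20% of their exonic length with other genes and their counts are uncertain.

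**Figure D4:**
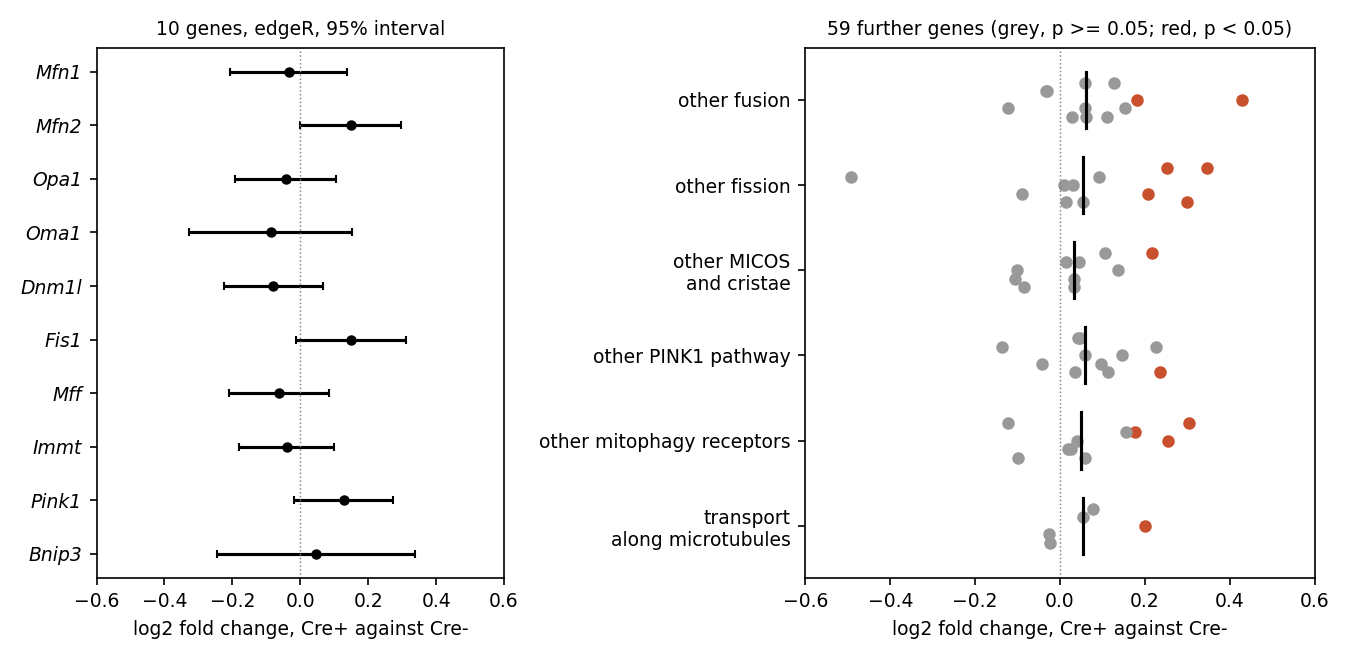
Log2 fold change of Cre+ against Cre- mice (x axis). On the left are the 10 genes with 95% intervals from edgeR, all of which include 0; on the right are 59 further genes as points by list (y axis), red at an unadjusted p under 0.05, with a black line at each list's median. All 12 red points lie above 0, and 0 of 59 genes passed edgeR's test at an adjusted p under 0.05.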

How the data were processed

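iBAT of 5 Cre- and 5 Cre+ mice was analyzed, grouped by the genotype in the labels. The submitters' processing notes name Trimmomatic for trimming, STAR for alignment to GRCm39 and featureCounts 2.0.1 for counting, with no version for the first 2 tools. The values that the authors deposited are raw counts per gene of GENCODE M28. The counts treat each mate as a read, ignore strand and leave out reads that aligned to more than 1 place. For RNA isolation, an RNeasy kit is named in the labels and a PeqGOLD kit in the methods. Symbols from a table of identifiers matched 52081 genes (94.0%).

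edgeR 4.0.16 in R 4.3.3 was run with TMM, filterByExpr (minimum count 10, minimum total count 15), robust dispersions, the quasi-likelihood test and Benjamini-Hochberg adjustment over 17690 genes. An SE is the log2 fold change divided by the square root of F. P-values judge the difference between the groups against the spread between mice. Copies of transcripts were sought with BLAST 2.17.0 in an older GENCODE release, which also gave principal transcript lengths. The genes named were the 10 members, RetSat, up to 3 genes of smallest p from each of 6 further lists, every called gene and 7 partner genes; Inf2 was added after its values were seen. Values of 1 gene under this rule are not reported here. The genes, lists and tests were chosen with earlier results of these data known. The alternatives were DESeq2 1.42.0, limma 3.58.1 voom with sample weights, other scalings and filters, a replicate block and leaving out libraries; the principal transcript length was added after seeing the data. The test was also run on simulated counts. The differences planted in them were larger than the log2 fold changes of the 10 genes. This check therefore does not cover differences of that size.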

Additional observations from a re-analysis of the deposited data

Results flagged for a closer look

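In 34 genes, each group of 5 mice was tested for a library apart from the others, and 3 of 68 groups were flagged, where chance flags about 1 in 20. Bnip3 had 217.87 CPM in Cre+ 2, with the next Cre+ mouse at 153 CPM. Bnip3 had 198.17 CPM in Cre- 5, with the next Cre- mouse at 150 CPM. RetSat had 38.982 CPM in Cre+ 3, with the next Cre+ mouse at 23.0 CPM. The cause of these values was not tested.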

How the results depend on the processing

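Under 20 alternatives, 0 of the 10 genes were called, and 192 of 200 log2 fold changes kept their direction. With total counts without TMM, which moved the median of all genes to 0.07, Mfn1 was at 0.0377, Opa1 at 0.0307, Mff at 0.0108 and Immt at 0.0344. Without the 3 lettered Cre+ libraries, Mfn1 was at 0.0243, Dnm1l at 0.0439 and Mff at 0.04. Leaving out single libraries, Bnip3 ranged from -0.0871 (without Cre+ 2) to 0.15 and RetSat from -3.20 to -2.81. RetSat was called under all 20 alternatives. The cause of these shifts was not tested. Over all genes, 29 were called by edgeR, 393 by DESeq2, 147 by limma voom, 92 with no filter on low counts, 289 without the 2 libraries high in muscle transcripts, and 9 (without Cre+ 1) to 331 (without Cre+ 4) when single libraries were left out. Of the further pathway genes, 1 was called by DESeq2 (Mtfp1), and 0 to 1 when single libraries were left out (Mief2 without Cre+ 4). With the principal transcript as length, levels in Cre- mice were 20.1 CPM per kb for Mfn1, 99.4 for Mfn2, 46.4 for Opa1, 5.00 for Oma1, 26.9 for Dnm1l, 59.4 for Fis1, 53.0 for Mff, 242 for Immt, 109 for Pink1 and 88.8 for Bnip3. Labels of both groups share replicate numbers, and correlations of same-numbered deviations were 0.18, -0.11, 0.15, -0.20 and 0.22. Mice numbered 1 and 3 were the best match of each other across the groups, and those numbered 2, 4 and 5 were not. These values cannot decide whether same-numbered mice were paired. With the replicate number as a block, 0 of the 10 genes and 23 of all genes were called. At an unadjusted p under 0.05, 7 further pathway genes were then higher, against 12 without the block. Over all genes these counts were 977 and 1132. With 5 mice per group, differences inside the 95% intervals remain possible.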
